A study of Sus scrofa with 9 samples.

Results

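The genes that license, fire and copy the DNA replication origins were followed in the left ventricle of the newborn pig. The set was a list of 41 gene symbols, and its members were the rows of the deposited table whose gene name was one of them. That rule found 38 genes among 22629 rows. The other 3 listed genes, GINS1, POLA2 and PRIM1, were present only under Ensembl pig gene identifiers (ENSSSCG00000034913, ENSSSCG00000012997 and ENSSSCG00000026055), which a reference table pairs with those symbols. Their values are given below but are not in the counts. The rule goes by name, but the list was drawn up with earlier results of these data known.

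The tissue was left ventricular myocardium of untreated wild type pigs (Sus scrofa), taken on postnatal day 0, day 7 and day 15, with 3 RNA sequencing libraries per age and 9 in all. Libraries carry the replicate numbers of their labels, which are 4, 5 and 6 at day 0, then 2, 5 and 6 at day 7, and 1, 2 and 6 at day 15. Nothing in the labels ties libraries of 1 age to different animals, so each p-value measures the spread between these samples, which may be technical. Each library was whole tissue, so fewer cells in replication and less RNA per cell cannot be told apart.

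Before a cell can copy its DNA, the origin recognition complex (ORC) marks origins, and CDC6 and CDT1 load the ring-shaped MCM2 to MCM7 helicase there. The kinase CDC7, with MCM10, CDC45 and the GINS complex, turns the loaded ring into a moving helicase. Behind it the polymerases and primase, the PCNA clamp with its RFC loader, the RPA single-strand binding complex, FEN1 and LIG1 copy and seal the DNA, and the CAF-1 complex puts histones back. In mammals many of these genes are targets of E2F transcription factors and are most active in cells preparing for or passing through S phase. Heart muscle cells of mammals are known to leave the cell cycle after birth, at an age that was not measured here.

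Values were TPM, each transcript's share of its library after correction for transcript length, so levels can be compared between genes, but the sequencing depth behind a value is unknown. A single unnamed gene took 24.0% to 46.0% of all TPM, with the highest share in day 15 replicate 1, and 11290 to 12164 genes reached 1 TPM in a library. The tissue label was checked against heart muscle markers. The summed TPM of the 8 cardiomyocyte markers present ran from 48556 (day 15 replicate 1) to 72865 (day 0 replicate 6). All 38 members passed the filter on low values (1 TPM or more in 3 or more libraries), as did 12268 genes in all. By chromosome label and position in RefSeq's Sscrofa11.1 annotation, MCM7, GINS2, RFC1, RFC4 and RFC5 overlap another protein-coding gene. With the use of strand in counting not given in the sources used here, their values are less certain. MCM5 was matched in the same way to MARK3 and others. Sequences under a shared label were not told apart, so the MCM5 overlap may not be real.

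Over the 9 libraries PCNA, the sliding clamp that holds polymerases on DNA, had the highest mean at 32.1 TPM, followed by the clamp loader subunit RFC2 at 18.3 TPM and the helicase subunit MCM7 at 17.7 TPM. The lowest means were 0.964 TPM for MCM10 and 1.11 TPM for POLE2. PCNA was the highest at each age, but RFC2 averaged 18.9 ± 2.62 TPM at day 0, 21.1 ± 1.32 TPM at day 7 and 14.7 ± 2.24 TPM at day 15, where MCM7 averaged 11.8 ± 5.69, 27.3 ± 5.21 and 14.2 ± 1.5 TPM (SD, n = 3), so that MCM7 was the higher of the 2 at day 7. The lowest mean was that of POLE2 at day 0, POLA1 at day 7 and MCM10 at day 15. Together the 38 genes summed to 166, 289 and 207 TPM at day 0, 423, 360.2 and 327 at day 7 and 176, 225 and 213 at day 15 in the order of the replicate numbers. The day 7 sums lay above all others, and within day 0 the sum of replicate 5 was the highest. On average the sum was 220.4 ± 62.8 TPM at day 0, 370.0 ± 49.0 TPM at day 7 and 205 ± 25.4 TPM at day 15 (± SD, n = 3 at each age, as in all means by age that follow).

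**Figure D1:**
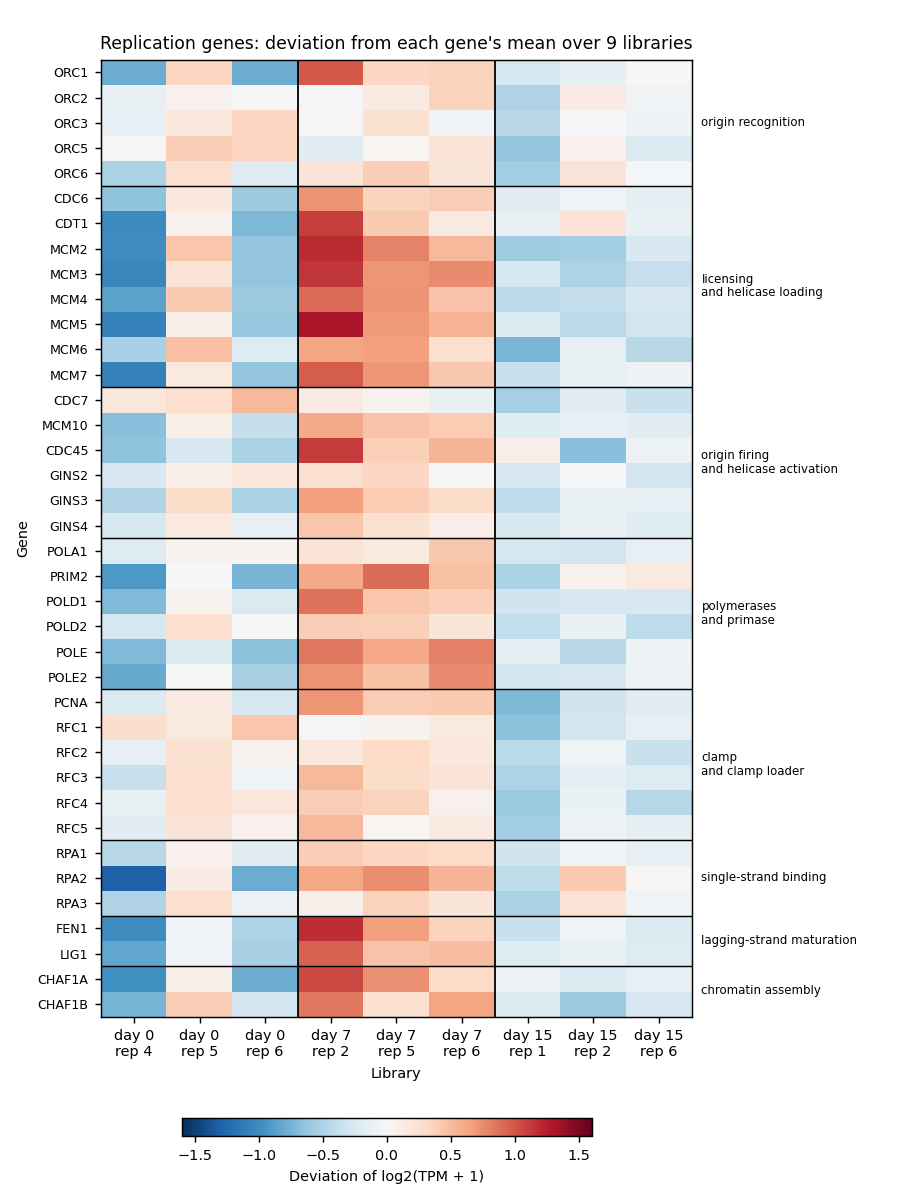
Deviation of log2(TPM + 1) from each gene's mean over the 9 libraries, for the 38 replication genes (rows, grouped by role) in each library (columns, grouped by age), with red above the mean and blue below it. The licensing genes are red in the day 7 libraries and blue in day 0 replicates 4 and 6, and day 0 replicate 5 lies between these for each of them except MCM6, where it is above day 7 replicate 6.

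The comparison of day 7 with day 0 asked how the set changed over the first week. Of 38 members, 19 rose and 0 fell, against a background of 16.6% of all 12268 genes that passed in either direction and of 7.67% that rose and 8.88% that fell (limma on log2(TPM + 1), adjusted p under 0.05). The median log2 fold change on this scale was 0.74 for the members and -0.04 for all genes. At an unadjusted limma p under 0.05, 23 of 38 members were higher at day 7 and 0 lower, while 33.8% of all genes passed that p in either direction. The 3 libraries of day 7 lay above the 3 of day 0 for 20 of 38 members, against 17.6% of all genes. The members that rose came from each of 8 roles. They were ORC1 among 5 origin recognition genes, 7 of 8 licensing genes, 2 of 6 firing genes, 4 of 6 polymerase and primase genes, 1 of 6 clamp and loader genes, 1 of 3 RPA genes, both lagging-strand genes and 1 of 2 CAF-1 genes.

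The number that passed depended on the libraries used. It was 6 without day 0 replicate 4, 3 without day 0 replicate 6, 11 without day 7 replicate 2 and 23 without day 0 replicate 5. The count over all genes moved as well, to 622, 392, 1129 and 2475 in the same fits, against 2031 with all libraries. The leading-strand polymerase POLE alone passed in each of the 18 alternative fits in which it was tested, and LIG1, MCM3, MCM5, PRIM2, FEN1 and POLE2 failed in 1 or 2. Among all genes, 46.3% of those that passed rose, and 65.6% did when TPM was rescaled without mitochondrial and the 20 most abundant genes. That rescaling gave 26 members up and 0 down, with 19.2% of all genes up and a median of 1.05 for the members and 0.11 for all genes. It also enlarged the values kept, while the pseudocount stayed at 1 TPM. A pseudocount of 0.1 TPM on deposited values gave medians of 0.97 for the members and -0.05 for all genes. The part of the pseudocount in the rescaled result was not tested.

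The next step was day 15 against day 7. All 38 members had a log2 fold change below 0, where 26.5% of all genes had one above 0, and 0 members passed the threshold in either direction, against 0.171% of all genes (21 of 12268), 0.0408% up and 0.130% down. The median log2 fold change was -0.66 for the members and -0.15 for all genes. At an unadjusted limma p under 0.05 there were 29 members, each lower at day 15, against 12.8% of all genes. The day 15 libraries lay below the day 7 libraries for 32 of 38 members, against 17.9% of all genes. The exceptions were ORC2, ORC3, ORC5, ORC6, CDT1 and RPA3. With median-of-ratios scaling, which sets the typical gene equal between libraries, the medians were -0.53 for the members and 0.00 for all genes, and the genes that passed split into 4 up and 4 down, against 5 up and 16 down on deposited TPM and 4 up and 8 down after the rescaling above. Every member's log2 fold change stayed below 0 in each of the 19 alternative fits in which it was tested. Fits that changed only the filter, the estimate of spread or the day 0 libraries could not change it, so they do not test its sign. Without day 0 replicate 5, which enters this comparison only through the shared estimate of spread, 4 members fell (MCM2, MCM3, MCM4 and POLE). Over all genes 50 passed in that fit (0.408%), 9 up and 41 down, against 21 with all libraries.

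Day 15 against day 0 asked whether the set ended the 2 weeks above or below its newborn level. Of 38 members 0 rose and 2 fell, against a background of 23.9% in either direction, 5.53% up and 18.4% down. CDC7 and RFC1 were the members that fell, and their day 15 libraries lay below those of day 0, as for 30.5% of all genes. No member had its day 15 libraries all above day 0 (0 of 38, against 9.45% of all genes). At an unadjusted limma p under 0.05, 0 members were higher at day 15 and 4 lower, while 39.0% of all genes passed that p in either direction. The median log2 fold change was 0.00 for the members and -0.19 for all genes, and 19 members had a value above 0 and 19 below. Median-of-ratios scaling gave a median of 0.01 for all genes and 0.20 for the members, with 1 member up (RPA2) and 2 down. Rescaling without mitochondrial and the most abundant genes gave 1 up (RPA2) and 1 down. Among all genes, 1912 rose and 1889 fell with median-of-ratios scaling and 1801 rose and 1757 fell after the rescaling, against 678 and 2255 on deposited TPM.

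These counts also depended on single libraries of both ages. Without day 0 replicate 5, 5 members rose (CDT1, CHAF1A, MCM7, PRIM2 and RPA2) and the same 2 fell, with a median of 0.22, while 7.90% of all genes rose (969 up and 2263 down). A single fall was left when replicate 4 of day 0 was set aside (CDC7), or replicate 1 (CDC7) or 6 (RFC1) of day 15, and 0 without day 0 replicate 6. Over all genes 1535, 1330, 1021 and 618 fell in those 4 fits, against 2255 with all libraries. Without day 15 replicate 2 there were 4 falls, with ORC5 and RFC4 added, and 2823 over all genes.

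**Figure D2:**
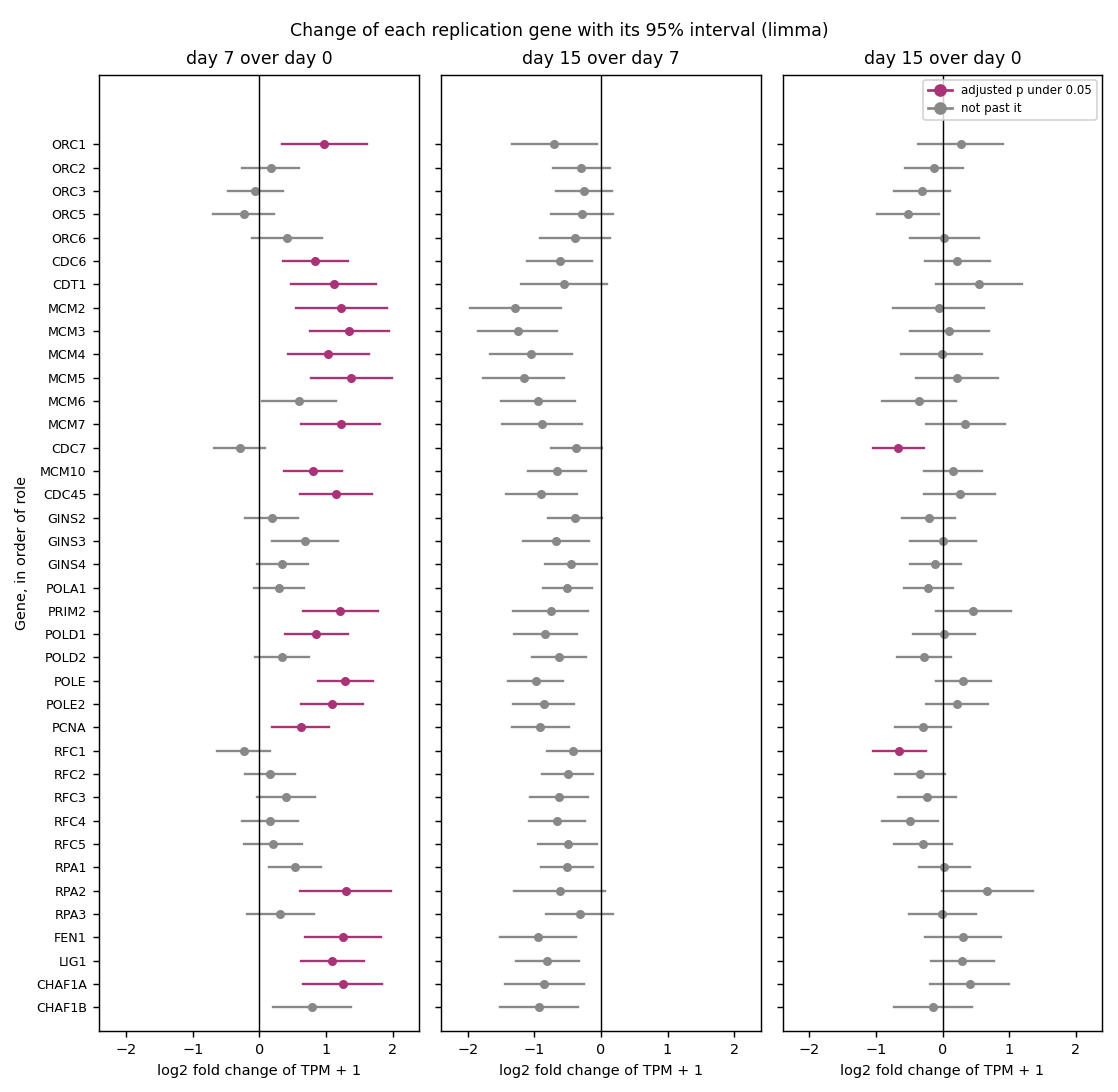
Log2 fold change of TPM + 1 (points) with its 95% interval (lines) for each of the 38 replication genes in the 3 comparisons, from limma. In the first panel 19 genes are past the threshold and all lie to the right of 0, in the second all 38 points lie to the left of 0 with none past the threshold, and in the third only CDC7 and RFC1 are past it.

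Set against the mean of the other ages, day 7 had a log2 fold change above 0 for all 38 members, and for 56.0% of all genes. The sign of ORC3, ORC5 and CDC7 turned in at least 1 of 18 alternative fits. Of the 38, 13 passed, against 1.53% of all genes that rose, 0.391% that fell and 1.92% in either direction (limma adjusted p under 0.05). They were MCM2, MCM3, MCM5, MCM7, CDC45, PRIM2, POLD1, POLE, POLE2, PCNA, FEN1, LIG1 and CHAF1A. The 3 day 7 libraries lay above all 6 others for 19 of 38 members, against 6.15% of all genes, and the highest of the 9 libraries was a day 7 one for 34 of 38, against 32.1%. In the F test over the ages 21 of 38 members passed, against 22.0% of all genes. For day 7 against the other ages, 188 of all genes rose and 48 fell, against 303 and 280 with median-of-ratios scaling, where 15 members rose. The member count was 23 without day 0 replicate 5, but 1 when any of day 0 replicate 4 or 6 or day 7 replicate 5 was set aside, and 0 without replicate 2 or 6 of day 7. Over all genes 734 passed without day 0 replicate 5, 23 and 18 without day 0 replicates 4 and 6, 62 without day 7 replicate 5, and 10 and 3 without day 7 replicates 2 and 6, against 236 with all libraries. Without day 15 replicates 1, 2 and 6 in turn it was 6, 7 and 2 members, and 196, 170 and 71 over all genes.

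The 5 origin recognition genes had a median change of 0.17 at day 7, and 1 rose. ORC1, an ATPase subunit, had 0.662, 2.63 and 0.651 TPM at day 0, 4.67, 2.61 and 2.71 at day 7, and 1.37, 1.60 and 1.85 at day 15. The day 0 libraries fell into a high replicate 5 and a low pair, and replicate 5 overlapped the day 7 range. ORC1 rose by 0.98 at day 7 (± 0.29 SE, limma adjusted p = 0.0417), a call lost in 9 of 18 alternative fits, including those without day 0 replicate 4 or 6, without each day 7 library and without day 15 replicate 6. ORC3, the most abundant of the ORC genes, had 4.34, 5.55 and 6.37 TPM at day 0, 4.93, 5.91 and 4.57 at day 7, and 3.28, 4.70 and 4.51 at day 15. The ages overlapped for ORC3, and its change at day 7 was -0.06 (limma adjusted p = 0.853), a sign that turned positive in 3 fits.

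ORC5, a further core subunit, had 4.41, 5.99 and 5.76 TPM at day 0, 3.68, 4.45 and 5.15 at day 7, and 2.43, 4.59 and 3.54 at day 15, with overlap between all ages. Its log2 fold change was -0.23 for day 7 over day 0 (limma adjusted p = 0.458) and -0.52 for day 15 over day 0 (limma adjusted p = 0.0936), with a 95% interval of -0.98 to -0.06. ORC2 and ORC6 had log2 fold changes of 0.17 and 0.42 at day 7, and neither passed. Summed, the 5 ORC genes held 21.2 ± 0.491 TPM at day 7 against 18.5 ± 3.92 TPM at day 0, a difference smaller than the spread at day 0.

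The 8 licensing genes had a median change of 1.17 at day 7, and 7 rose. MCM3, a helicase subunit, had 2.56, 7.55 and 3.75 TPM at day 0, 15.2, 11.0 and 11.4 at day 7, and 5.02, 4.23 and 4.68 at day 15. Its day 7 libraries did not overlap either other age, and day 0 replicate 5 lay above the day 15 libraries. MCM3 rose by 1.35 ± 0.27 (SE) at day 7 (limma adjusted p = 0.0101) and had a change of -1.25 at day 15 against day 7 (limma adjusted p = 0.106). MCM5, another subunit of the ring, had 4.64, 11.7 and 6.82 TPM at day 0, 28.6, 18.1 and 16.5 at day 7, and 9.22, 7.88 and 8.77 at day 15. On the log2(TPM + 1) scale it had the largest rise of the set at 1.38 ± 0.28 (limma adjusted p = 0.0103). Both calls were lost without day 0 replicate 6.

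MCM7, the most abundant subunit, had 7.09, 18.1 and 10.1 TPM at day 0, 32.6, 27.0 and 22.2 at day 7, and 12.5, 14.9 and 15.2 at day 15. The day 7 libraries were again above all others, and MCM7 rose by 1.22 (limma adjusted p = 0.0139), which was lost without day 0 replicate 4 or 6. MCM2 rose by 1.23, MCM4 by 1.04, CDT1 by 1.11 and CDC6 by 0.84, with limma adjusted p from 0.0233 to 0.0287, and these 4 calls were lost in 5 to 7 fits, among them those without day 0 replicate 4 or 6 and without day 7 replicate 2. The exception was MCM6, with 9.06, 19.1 and 11.5 TPM at day 0, 21.3, 21.8 and 16.3 at day 7, and 7.72, 12.2 and 9.66 at day 15. Day 0 overlapped day 7 only through day 0 replicate 5. The MCM6 change of 0.60 at day 7 did not pass (limma adjusted p = 0.119), although it passed at 0.88 without day 0 replicate 5.

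The subunits of the ring work as a hexamer with one copy of each, so their levels were set side by side. Their summed level was 30.3, 77.6 and 41.4 TPM at day 0, 132, 105 and 88.5 at day 7, and 44.4, 49.5 and 50.8 at day 15. The mean sum was 109 ± 21.9 TPM at day 7, against 49.8 ± 24.7 TPM at day 0. MCM6 was the most abundant subunit in all 3 day 0 libraries, and MCM7 in the 6 later ones. MCM6 held 29.9, 24.6 and 27.8% at day 0, 16.1, 20.8 and 18.4% at day 7, and 17.4, 24.6 and 19.0% at day 15 of the sum. Its share at day 0 was above that of each day 7 library, while day 15 replicate 2 was close to the lowest day 0 share. The share of MCM7 was 23.4, 23.3 and 24.4% at day 0, 24.7, 25.7 and 25.1% at day 7, and 28.1, 30.1 and 30.0% at day 15, with no overlap between any pair of ages. MCM4 kept a share of 9.14% to 11.2% over all 9 libraries. These shares were singled out after their values were seen and carry no test.

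**Figure D3:**
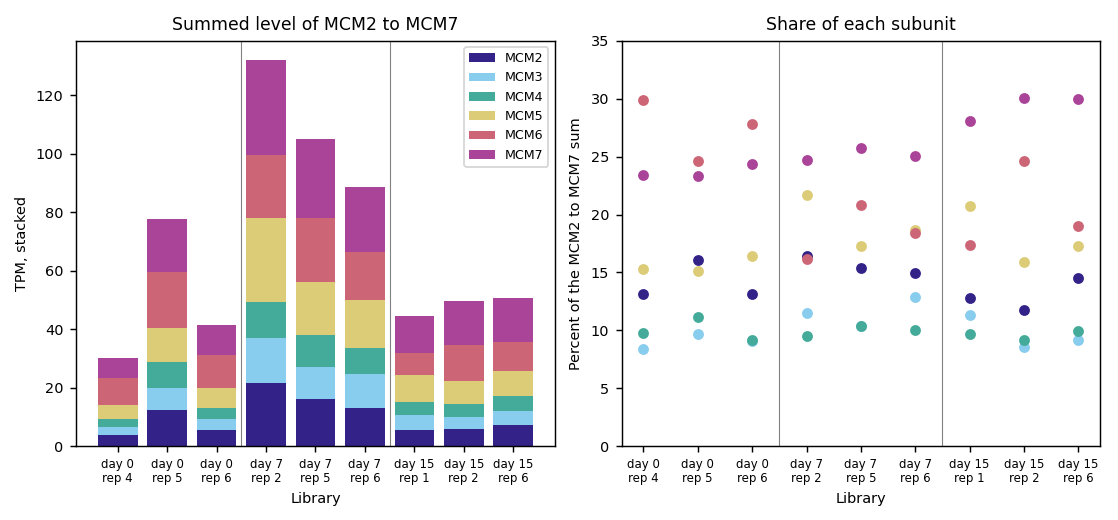
Left, TPM of MCM2 to MCM7 stacked in each library. Right, each subunit as a percent of that sum in the same libraries. The stack is tallest in the 3 day 7 libraries, at 88.5 to 132 TPM, and the points of MCM6 lie above those of MCM7 in the day 0 libraries and below them in the later ones.

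The 6 firing genes counted had a median change of 0.51 at day 7. CDC45, which joins the MCM ring in the active helicase, had 3.52, 4.89 and 3.99 TPM at day 0, 14.4, 8.18 and 9.32 at day 7, and 6.60, 3.46 and 5.68 at day 15. The day 7 libraries lay above all others, and day 0 replicate 5 was close to the other newborn libraries. CDC45 rose by 1.15 ± 0.25 (SE) at day 7 (limma adjusted p = 0.0117, lost without day 0 replicate 4 or 6). MCM10, a factor needed to activate the helicase, had 0.191, 1.01 and 0.452 TPM at day 0, 1.87, 1.60 and 1.5 at day 7, and 0.651, 0.729 and 0.673 at day 15. These are levels near or below 1 TPM outside day 7, where the scale understates change, and MCM10 rose by 0.81 (limma adjusted p = 0.0211, lost in 5 fits, including those without day 0 replicate 4 or 6 and day 7 replicate 2 or 6).

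CDC7, the kinase that phosphorylates the loaded helicase, had 6.11, 6.56 and 7.97 TPM at day 0, 5.88, 5.55 and 4.81 at day 7, and 3.36, 4.61 and 3.93 at day 15. The day 15 libraries lay below all the others and the day 7 libraries below all of day 0. Its day 7 change of -0.29 did not pass (limma adjusted p = 0.257), and at day 15 it fell by 0.67 against day 0 (limma adjusted p = 0.0193), a call lost without day 0 replicate 6 or day 15 replicate 6. DBF4, the activating partner of CDC7, is not a member and was singled out after its values were seen. It had a log2 fold change of -0.23 in the same comparison (limma adjusted p = 0.442). The GINS genes GINS2, GINS3 and GINS4 had log2 fold changes of 0.18, 0.68 and 0.34 at day 7, and none passed. GINS1, listed under its identifier, had 0.956, 2.59 and 1.04 TPM at day 0, 3.61, 2.78 and 2.41 at day 7, and 1.19, 1.65 and 1.5 at day 15, with day 0 replicate 5 inside the day 7 range, and its change of 0.68 did not pass (limma adjusted p = 0.0666).

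The 6 polymerase and primase genes counted had a median change of 0.97 at day 7, and the epsilon subunits had the largest ratios of mean TPM at day 7 to day 0 among the members. POLE, the catalytic subunit that copies the leading strand, had 0.377, 0.912 and 0.43 TPM at day 0, 3.04, 2.47 and 2.92 at day 7, and 1.03, 0.658 and 1.12 at day 15. Its mean at day 7 was 4.91 times that at day 0, with no overlap, and it rose by 1.29 ± 0.19 (SE, limma adjusted p = 0.00319). Against day 7, POLE at day 15 had a change of -0.98 (limma adjusted p = 0.0755). POLE2, its accessory subunit, had 0.133, 0.992 and 0.381 TPM at day 0, 2.25, 1.73 and 2.35 at day 7, and 0.613, 0.666 and 0.846 at day 15, and rose by 1.09 (limma adjusted p = 0.00915).

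POLD2, an accessory subunit of the lagging-strand polymerase delta and the most abundant gene of this group, had 4.75, 7.36 and 5.86 TPM at day 0, 8.19, 8.14 and 7.04 at day 7, and 4.35, 5.50 and 4.27 at day 15. Day 0 replicate 5 lay inside the day 7 range. The POLD2 change of 0.34 at day 7 did not pass (limma adjusted p = 0.212), whereas the catalytic subunit POLD1 rose by 0.86 (limma adjusted p = 0.0223, lost in 5 fits, including those without day 0 replicate 4 or 6 and day 7 replicate 2). The difference between these 2 genes was not tested. The large primase subunit PRIM2 rose by 1.22 (limma adjusted p = 0.0117, lost without day 0 replicate 4 or 6). The catalytic subunit of polymerase alpha, POLA1, had a log2 fold change of 0.29 and the identifier-listed POLA2 and PRIM1, its B subunit and the catalytic primase subunit, had 0.54 and 0.53, and none of the 3 passed (limma adjusted p = 0.241, 0.0831 and 0.165).

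**Figure D4:**
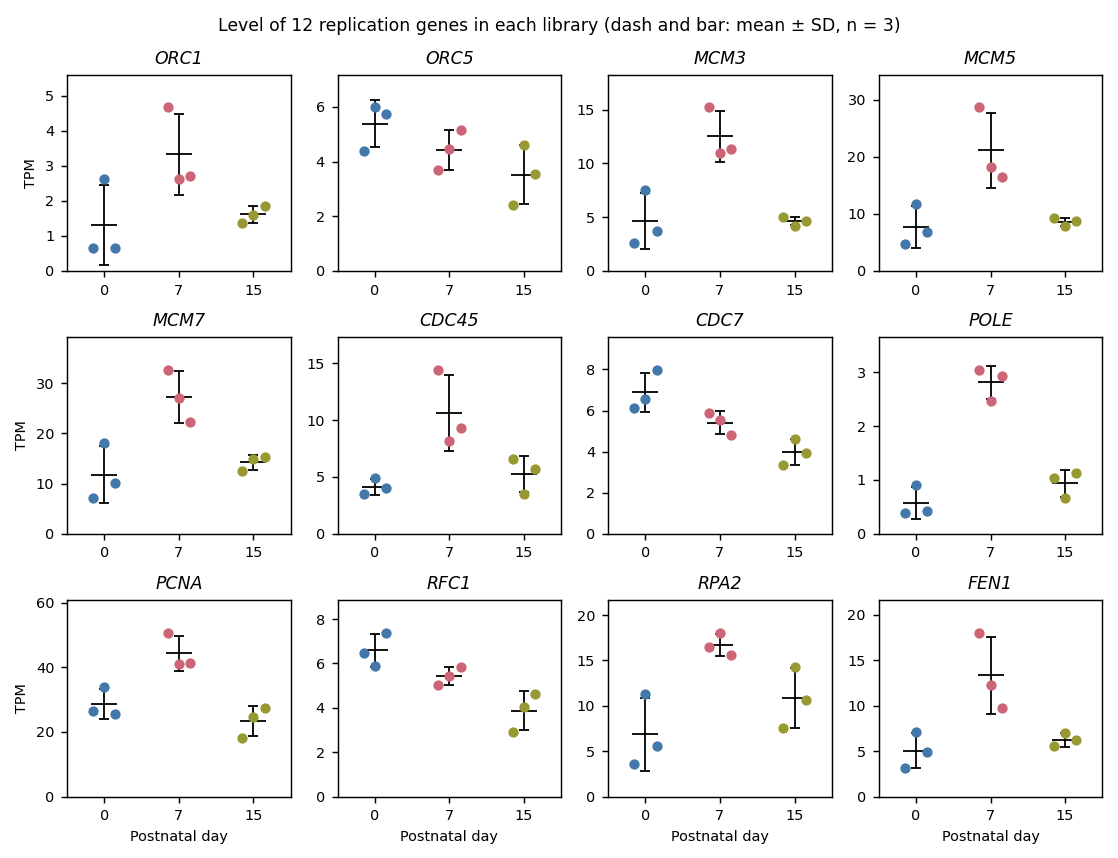
TPM of 12 replication genes in each library against postnatal day, with points for libraries and a dash and bar for the mean ± SD of 3 libraries, each axis starting at 0. In MCM3, MCM5, MCM7, CDC45, POLE, PCNA, RPA2 and FEN1 the day 7 points lie above all others, while in CDC7 and RFC1 the day 15 points are the lowest.

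PCNA had 26.4, 33.9 and 25.6 TPM at day 0, 50.7, 41.1 and 41.3 at day 7, and 18.2, 24.5 and 27.3 at day 15. The day 7 libraries were above all others, and PCNA rose by 0.62 ± 0.20 (SE, limma adjusted p = 0.0491), a call lost in 10 of 19 alternative fits, among them each fit without day 0 replicate 4 or 6, any day 7 library or day 15 replicate 6. Its change at day 15 against day 7 was -0.91 (limma adjusted p = 0.102). The loader that opens PCNA around DNA had 0 of 5 RFC genes past the threshold at day 7, with changes of -0.23 to 0.39. Over all genes 7.67% rose and 8.88% fell, so few calls among 5 genes would be usual. RFC3 rose under median-of-ratios scaling and under the rescaling without mitochondrial and the most abundant genes, where 15.6% and 19.2% of all genes rose.

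RFC1, the large loader subunit, had 6.48, 5.90 and 7.38 TPM at day 0, 5.03, 5.42 and 5.86 at day 7, and 2.93, 4.04 and 4.65 at day 15. Its day 15 libraries lay below all the others, and it fell by 0.65 at day 15 against day 0 (limma adjusted p = 0.0245). That call was lost in 6 of 19 fits, among them those without replicate 4 or 6 of day 0 or replicate 1 of day 15. The small subunits RFC2, RFC3, RFC4 and RFC5 had changes of -0.34, -0.24, -0.49 and -0.29 in the same comparison, and none passed.

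RPA coats exposed single strands. RPA2, its middle subunit, had 3.63, 11.4 and 5.57 TPM at day 0, 16.5, 18.0 and 15.6 at day 7, and 7.61, 14.2 and 10.7 at day 15. Day 7 lay above both other ages, day 0 replicate 4 held the lowest of the 9 values, and day 15 stayed within the newborn range or above it. RPA2 rose by 1.29 ± 0.31 (SE) at day 7 (limma adjusted p = 0.0189, lost without replicate 4 or 6 of day 0 or replicate 6 of day 7). It had the highest day 15 over day 0 value of the members, 0.67, which did not pass (limma adjusted p = 0.131). RPA1, the large subunit, had 8.21, 12.1 and 10.1 TPM at day 0, 15.5, 14.8 and 14.5 at day 7, and 9.06, 11.2 and 10.5 at day 15. Its libraries did not overlap between day 7 and either other age, and its change of 0.53 did not pass (limma adjusted p = 0.0580). RPA3 had a log2 fold change of 0.32 (limma adjusted p = 0.354).

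FEN1 trims the flaps of lagging-strand fragments and LIG1 seals them. FEN1 had 3.18, 7.08 and 4.93 TPM at day 0, 18.0, 12.2 and 9.74 at day 7, and 5.53, 7.03 and 6.21 at day 15. LIG1 had 3.28, 6.35 and 4.33 TPM at day 0, 13.7, 9.47 and 9.69 at day 7, and 5.65, 6.06 and 5.58 at day 15. In both genes day 7 replicate 2 was the highest library and the day 7 libraries overlapped neither other age. FEN1 rose by 1.25 ± 0.26 (SE, limma adjusted p = 0.0109, lost without day 0 replicate 6), and LIG1 by 1.10 ± 0.22 (SE, limma adjusted p = 0.00930).

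The CAF-1 subunits place histones H3 and H4 on new DNA. CHAF1A, the large subunit, had 1.48, 4.27 and 1.84 TPM at day 0, 9.16, 7.14 and 5.11 at day 7, and 3.60, 3.21 and 3.46 at day 15. The day 7 libraries lay above all others. CHAF1A rose by 1.25 ± 0.27 (SE, limma adjusted p = 0.0126, lost without day 0 replicate 4 or 6). CHAF1B had 0.691, 2.71 and 1.29 TPM at day 0, 4.06, 2.37 and 3.40 at day 7, and 1.41, 0.892 and 1.35 at day 15. Day 0 replicate 5 reached into the day 7 range, and its change of 0.79 did not pass with all libraries (limma adjusted p = 0.0616) but did without replicate 5, at 1.10.

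The libraries of an age were not alike. Day 0 replicate 5 was the highest newborn library for 34 of 38 members, against 34.5% of all genes, with the exceptions ORC3, CDC7, GINS2 and RFC1. Its value was 4.01 times the mean of the other newborn libraries for ORC1, 3.41 times for CDC6 and 2.65 times for MCM2, but 1.30 times for CDC45 and 0.932 times for CDC7. Day 0 replicate 4 was the lowest newborn library for 34 of 38, against 59.7% of all genes. Day 7 replicate 2 was the highest day 7 library for 25 of 38, against 29.2%, and the highest of all 9 for 24, against 10.5%. Day 7 replicate 6 was the lowest day 7 library for 22 (57.9%), close to the 54.5% of all genes. At day 15, replicate 1 was the lowest for 28 (73.7%), close to the 74.4% of all genes. Replicate 2 of day 15 was the highest for 23 (60.5%), below the 73.1% of all genes. The lowest of the 9 libraries was a day 0 one for 21 members, against 29.7%, and in 19 of these it was replicate 4, against 21.9% of all genes. It was a day 15 one for 17, against 55.8%, and in 13 of these replicate 1, against 45.0% of all genes. The median deviation of the members from their 9-library mean was -0.58, 0.16 and -0.28 at day 0, 0.63, 0.39 and 0.36 at day 7 and -0.38, -0.12 and -0.16 at day 15, on the log2(TPM + 1) scale.

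Markers of other cells also differed between the libraries. The 8 erythroid markers present summed to 523, 1262 and 394 TPM at day 0, 1214, 857 and 555 at day 7 and 434, 537 and 655 at day 15, most of it HBB. The libraries highest in replication genes at day 0 and day 7, replicates 5 and 2, also had the largest erythroid sums of their ages. At day 15 they differed, with replicate 2 highest in replication genes (225 TPM) and replicate 6 in erythroid markers (655 TPM). The lowest libraries at day 0 differed too, with replicate 4 lowest in replication genes and replicate 6 in erythroid markers. Of the less abundant markers, ALAS2, the first enzyme of heme synthesis in red cells, had 4.08, 11.1 and 3.34 TPM at day 0, 8.0, 9.47 and 4.97 at day 7, and 4.73, 4.39 and 7.59 at day 15. AHSP, which binds free alpha globin, had 0.987, 0.682 and 0.632 TPM at day 0, 2.23, 0.471 and 0.931 at day 7, and 0.456, 0.398 and 0.740 at day 15. Over the 9 libraries ALAS2 peaked in day 0 replicate 5 and AHSP in day 7 replicate 2. Among the day 7 libraries, however, replicate 5 had the most ALAS2, and among the day 0 libraries replicate 4 had the most AHSP. The erythroid markers had a median deviation of -0.18, -0.02 and -0.14 at day 0 and 0.17, 0.22 and -0.14 at day 7. By that measure replicate 5, not replicate 2, led at day 7. KLF1, a red cell transcription factor, was at 0 to 0.0382 TPM in the 9 libraries. Against day 0, 1 of 4 tested erythroid markers rose at day 7 (GYPC), where 7.67% of all genes rose and 8.88% fell. Summed endothelial markers were 232 ± 20.8 TPM at day 0, 326 ± 14.8 TPM at day 7 and 219 ± 20.9 TPM at day 15 (7 genes, 2 up and 1 down at day 7), and fibroblast markers 1196 ± 257, 1833 ± 340.2 and 1329 ± 159.6 TPM (8 genes, 2 up and 0 down). Among endothelial markers PECAM1 and CDH5 rose and EMCN fell. The log2 fold change at day 7 was below 0 for 2 of 7 endothelial and 2 of 8 fibroblast markers. The 8 T and NK lymphocyte markers reached 66.5 TPM in day 15 replicate 2 and 6.29 to 23.9 TPM elsewhere. The part of these cells in the results was not tested.

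**Figure D5:**
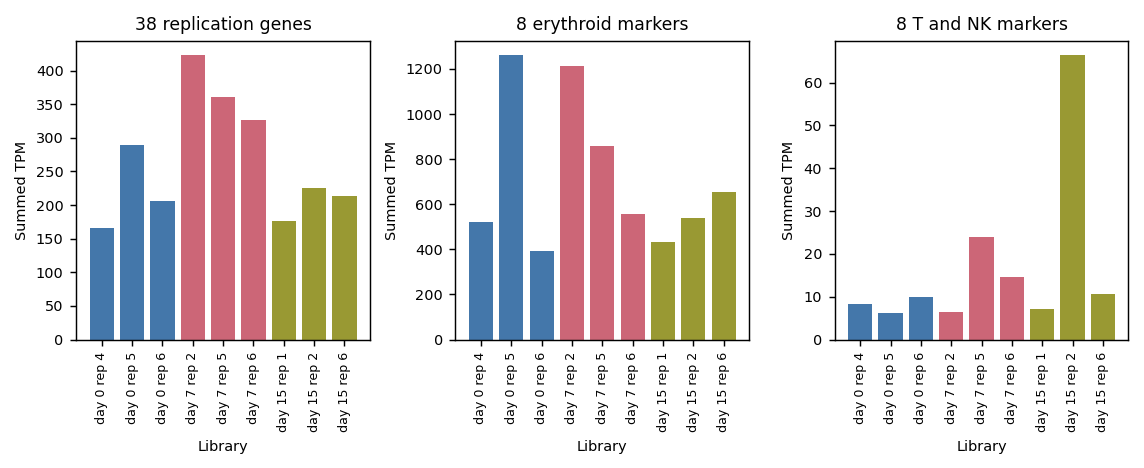
Summed TPM of the 38 replication genes, of 8 erythroid markers and of 8 T and NK lymphocyte markers in each of the 9 libraries, coloured by age. The replication sum is highest in the day 7 libraries, the erythroid sum in day 0 replicate 5 and day 7 replicate 2, and the T and NK sum in day 15 replicate 2.

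Other genes of the replication machinery were read from a further list of 39, of which 36 were present and 33 were tested. At day 7, 10 of 33 rose and 0 fell against day 0, where 7.67% of all genes rose and 8.88% fell. The median was -0.03, against -0.04 for all genes. At an unadjusted limma p under 0.05, 14 were higher and 2 lower, against 33.8% of all genes in either direction. At day 15, 0 passed against day 7, against 0.171% of all genes (0 higher and 15 lower at the unadjusted p, against 12.8% of all genes). Against day 0, 2 of 33 rose and 6 fell, shares close to those of all genes (5.53% up and 18.4% down). The 4 genes with the strongest evidence over the ages were TIPIN, NASP, TOP2A and ASF1B. TOP2A, the topoisomerase that untangles sister DNA, had 2.34, 8.30 and 2.61 TPM at day 0, 14.1, 13.3 and 11.8 at day 7, and 4.67, 5.56 and 8.05 at day 15, and rose by 1.54 at day 7 (limma adjusted p = 0.0122). The histone chaperone ASF1B, which hands histones to CAF-1, had 1.14, 6.41 and 1.30 TPM at day 0, 15.7, 11.1 and 8.41 at day 7, and 3.99, 5.39 and 7.30 at day 15, and rose by 1.90 (limma adjusted p = 0.0118). In both, the day 7 libraries were the highest and day 0 replicate 5 stood above the other newborn libraries.

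TIPIN, a fork protection factor, had 5.63, 6.52 and 6.48 TPM at day 0, 4.01, 3.82 and 4.32 at day 7, and 2.19, 3.05 and 2.32 at day 15, and fell by 1.04 at day 15 against day 0 (limma adjusted p = 0.00267). Its partner TIMELESS, also singled out after its values were seen, rose by 0.92 at day 7 (limma adjusted p = 0.0202), while TIPIN had a change of -0.51 that did not pass (limma adjusted p = 0.0552), and the difference between the 2 genes was not tested. NASP, a carrier of histone H3, had 31.9, 35.5 and 38.5 TPM at day 0, 36.2, 36.3 and 30.8 at day 7, and 20.2, 21.9 and 23.1 at day 15, and fell by 0.67 at day 15 against day 0 (limma adjusted p = 0.0123).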

How the data were processed

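RNA of 9 left ventricular libraries was profiled at 3 ages (day 0, day 7 and day 15, 3 libraries each). The authors deposited 1 table of TPM values with 22629 rows and 1 column per library. Per the submitters' processing notes, the tools were Trimmomatic 0.33, HISAT2 2.0.5 and kallisto 0.43.1 (role and order unstated), and the labels' protocols name a stranded mRNA kit. Not given in the sources used here were genome build, annotation and depth.

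The 12268 genes at 1 TPM or more in 3 or more libraries were fitted on log2(TPM + 1), a pseudocount of 1 TPM that understates the change of low genes, with limma 3.58.1 in R 4.3.3. The fit had 1 mean per age over all 9 libraries, trended empirical Bayes, 6 residual degrees of freedom, and Benjamini-Hochberg adjustment over all genes with a threshold of 0.05. The step was checked on simulated data with independent noise for each gene and no shift shared by the genes of a library. Only genes with a mean of 5 TPM or more were raised there. The check therefore does not cover differences between whole libraries or members at lower levels. With 3 libraries in each of 2 ages, the smallest two-sided exact permutation p is 0.1, so that test was not used.

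The members and lists were chosen with earlier results of these data known. Values in every library were given, for each role, for the most abundant member, the 2 with the smallest F test p, the one with the smallest p for day 15 against day 7 and any whose day 7 sign opposed the median of its role. MCM6 was added after its values were seen. Identifiers were paired with symbols through a reference table (889 of 7534 gave a new symbol). Alternatives were pseudocounts of 0.1 and 5, other filters (none, or a mean of 5 TPM or more), other scalings, no trend, a robust fit, the replicate number as a block, fits to only the ages compared, and each library left out in turn. Marker lists covered cardiomyocytes, endothelium, fibroblasts, pericytes and smooth muscle, erythroid cells, macrophages and lymphocytes.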

Additional observations from a re-analysis of the deposited data

How the results depend on the processing

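The direction at day 7 against day 0 was kept under the 19 alternatives by each member tested except ORC3, at 0.10 after rescaling without mitochondrial and the most abundant genes, 0.048 without day 0 replicate 6 and 0.0086 without day 7 replicate 6 (-0.18 to 0.048 leaving out one library), and RFC4, at -0.024 with the replicate block. The cause was not tested. Fits that changed only the filter, the estimate of spread or the day 15 libraries could not change this fold change, so they do not test its direction. Of 38 members, the 19 that rose at day 7 against day 0 became 11 with no filter (with 18573 genes tested in place of 12268), 11 of 20 tested with a mean of at least 5 TPM and 3 with the replicate block, and 3 to 23 leaving out one library. Over all genes, 3.14% rose with no filter, 7.18% with the mean filter and 2.65% with the block, against 7.67% in the reported fit. Leaving out one library, 392 to 2688 of all genes passed in either direction. At day 15 against day 7, the 0 that fell became 1 with a pseudocount of 5 (POLE) and 0 to 4 leaving out one library. Over all genes 24 fell with that pseudocount, and 0 to 52 passed in either direction leaving out one library. At day 15 against day 0, the 0 that rose became 1 under median-of-ratios scaling and under the rescaling, and 0 to 5 leaving out one library, and the 2 that fell became 1 under the rescaling, 1 with only the ages compared, 0 with the replicate block and 0 to 4 leaving out one library. Over all genes 1912 rose under median-of-ratios scaling and 1801 under the rescaling. Falls over all genes were 1757 under the rescaling, 1821 with only the ages compared and 523 with the block. Leaving out one library, 816 to 3266 of all genes passed in either direction. For day 7 against the mean of the other ages, the 13 became 6 with a pseudocount of 0.1, 1 with no filter, 7 with a mean of at least 5 TPM, 20 under the rescaling, 0 with the replicate block and 0 to 23 leaving out one library. Over all genes 111, 37, 71, 492 and 13 rose in the named fits, in the same order, against 188 in the reported fit. Leaving out one library, 3 to 734 of all genes passed in either direction.

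The ages share at most 2 replicate numbers, and deviations of same-numbered libraries correlated at -0.21 to 0.17 over 5 pairs (-0.33 to 0.37 over the 22 other pairs), so the numbers are not taken as a pairing. The block fit has 2 residual degrees of freedom, and POLE, PRIM2 and RPA2 were the 3 members that rose in it. Summed markers ranged over 192 to 336 TPM for pericytes and smooth muscle, 62.1 to 274 TPM for macrophages and 2.84 to 5.11 TPM for B lymphocytes. TPM holds no depth, so counting error could not be set beside members near or below 1 TPM, such as MCM10, POLE2, POLE and CDC6.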
